A study of Mus musculus with 4 samples.

Results

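The genes described here encode the subunits of Polycomb repressive complex PRC2, and they were followed through every array probe set that reads them. The members were the probe sets whose only gene symbol in the annotation of the Affymetrix mouse array was Ezh2, Ezh1, Eed, Suz12, Jarid2, Mtf2, Phf19, Aebp2, Rbbp4 or Rbbp7. These 10 genes, of 18193 that are named by a probe set of their own, had 35 probe sets among the 45037 of the array that are not controls. The cells were mouse leukemic cells carrying the MLL-AF9 fusion gene, taken from C57BL/6 recipients' bone marrow and purified. One group of 2 arrays held cells whose genotype entry is Ezh2 KO, and the other 2 arrays held wild-type cells. The labels conflict on the knockout samples, because a further entry describes their recipients as repopulated with Ink4a-/-Arf-/- marrow cells, and on this entry the groups would differ at another locus. The name Ezh2 KO used here follows the genotype entry. The sources used here do not give the age of the mice, how or when Ezh2 was deleted, or whether the 2 samples in a group are separate leukemias, so the p-values rest on a spread between samples that may be technical only.

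PRC2 is the enzyme complex that methylates histone H3 on the lysine named K27, a mark of silenced chromatin. Its core is a catalytic subunit, Ezh2 or its close relative Ezh1, bound to Eed and Suz12, with the histone-binding proteins Rbbp4 and Rbbp7. Accessory subunits define alternative forms of the complex: Mtf2 and Phf19 belong to one, and Jarid2 and Aebp2 to the other. Ezh2 is typical of dividing cells, while Ezh1 also serves cells that have stopped dividing. In blood cell cancers Ezh2 is known both as a gene that leukemic cells depend on and as a gene lost by mutation.

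Jarid2 was the only member with probe sets past a limma adjusted p of 0.05. These calls were lost with median centring, without a filter and with a single prior variance. Members that did not pass are not thereby shown to be unchanged. All 3 of its probe sets rose in Ezh2 KO cells, by 1.27-fold to 1.32-fold, and the remaining 9 genes had 0 probe sets past the threshold. Ezh2 itself was bright on all 4 arrays. Of the 33 member probe sets tested, 3 (9.09%) passed a limma adjusted p of 0.05, all of them higher and all of them from Jarid2. Over the whole array 2303 of 31526 tested probe sets passed (7.31%), with 3.91% higher and 3.39% lower, so the members' count lies near the background and the calls come from 1 gene. The median difference in log2(intensity + 16) over the brightest probe set of each of the 10 genes was 0.036, against 0.0057 over the brightest probe sets of all genes. Over all 33 tested member probe sets the median was 0.045, against 0.036 over all tested probe sets. In 17 of the 33 probe sets (51.5%) the arrays of the groups did not overlap, which was so for 49.6% of all tested probe sets, and in 12 of the 33 the Ezh2 KO arrays were apart as the higher ones, as they were in 27.9% of all tested probe sets. An unadjusted p under 0.05 was reached by 6 of the 33 members and by 21.1% of all tested probe sets. A probe set was tested when its mean over the 4 arrays exceeded an intensity of 21.9, the 30th percentile of the array, and 2 member probe sets lay below that. Adjusted p-values are limma's, with the Benjamini-Hochberg correction taken across all 31526 tested probe sets.

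**Figure D1:**
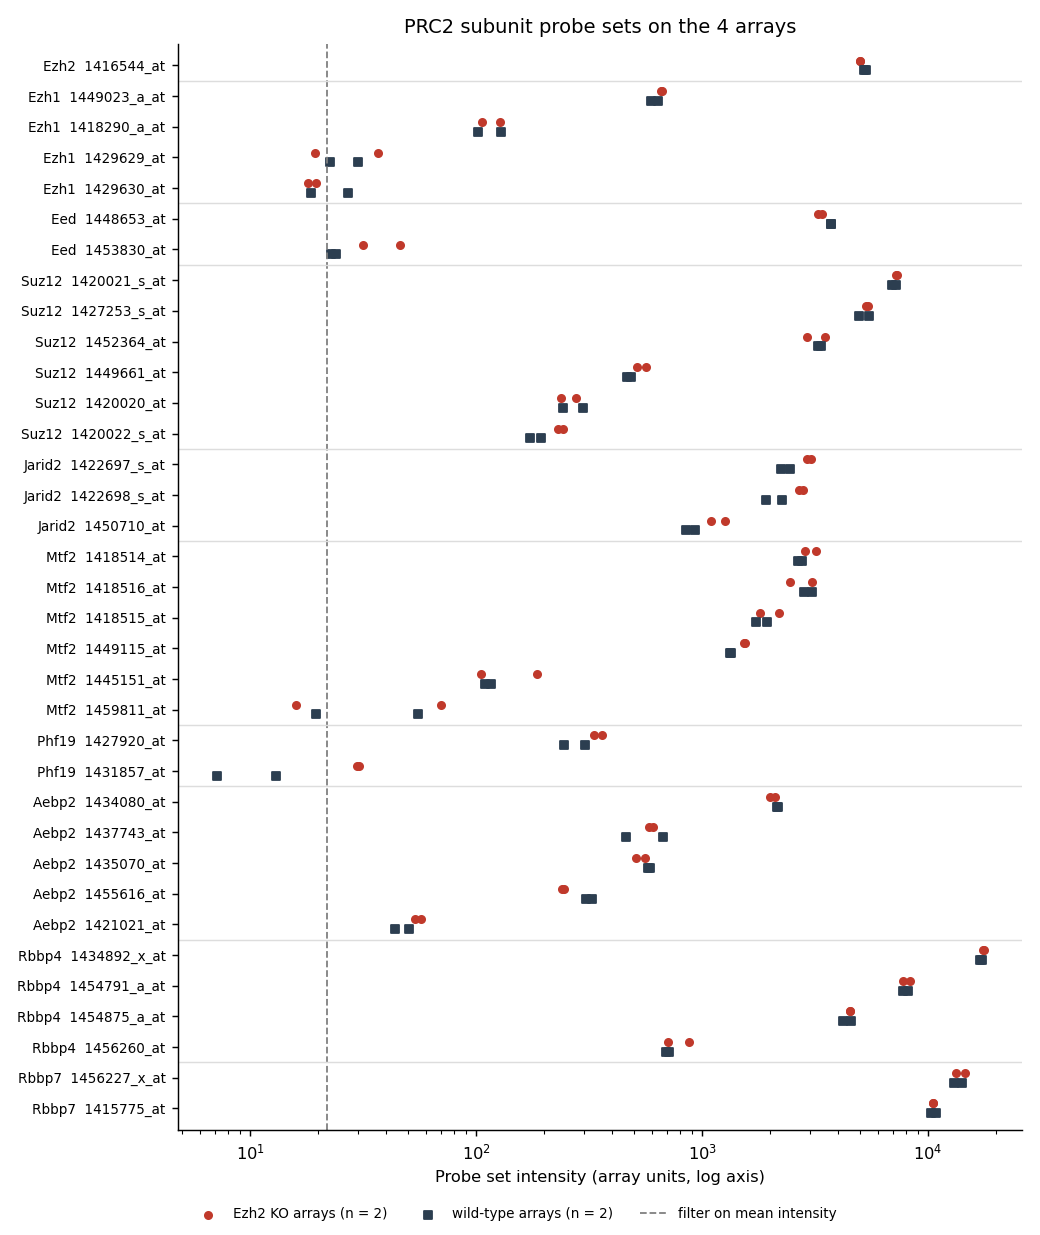
Intensity of the 35 PRC2 probe sets on each array, on a log axis, with Ezh2 KO arrays as circles above and wild-type arrays as squares below in each row (n = 2 each). The circles of the 3 Jarid2 probe sets lie to the right of their squares, and the dashed line marks the filter intensity of 21.9.

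Sequence upstream of the genes was read from RefSeq promoter windows of the assembly GRCm38.p6, in which all 10 genes had an entry. The bases before the first listed start site of Jarid2 are shown because it is the only member with probe sets past the threshold. They lie at chr13:44730524-44730773 on the plus strand.
Jarid2 upstream: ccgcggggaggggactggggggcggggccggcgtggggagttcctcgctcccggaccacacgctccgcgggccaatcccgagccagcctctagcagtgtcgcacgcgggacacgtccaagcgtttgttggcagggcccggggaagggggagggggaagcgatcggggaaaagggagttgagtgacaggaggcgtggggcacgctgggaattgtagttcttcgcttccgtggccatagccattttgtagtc
Ezh2 and Eed are known targets of the E2F factors of the cell cycle, so the windows, which run from 250 bases before to 50 after a start site, were searched on both strands for the E2F-type octamers TTTCCCGC, TTTCGCGC, TTTGCCGC and TTTGGCGC. A match was found in 3 of the 14 windows of the members, in Ezh2, Suz12 and Phf19, and in 2.26% of the 32851 windows of all genes. The 30 bases around each match are shown on the strand of the gene, with the octamer or its reverse complement in capitals, from chr6:47595009-47595038 on the minus strand, chr11:79992876-79992905 on the plus strand and chr2:34914166-34914195 on the minus strand.
Ezh2: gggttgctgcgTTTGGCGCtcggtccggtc
Suz12: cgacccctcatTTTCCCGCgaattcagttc
Phf19: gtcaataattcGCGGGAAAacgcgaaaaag
The window of Eed holds none of these octamers, and neither window of Jarid2 holds one. A match is a run of letters and does not show that a factor binds there. Whether the members hold matches more often than other genes was not tested.

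The catalytic subunits came first in the comparison. The single probe set of Ezh2, 1416544_at, had intensities of 4989 and 4991 on the Ezh2 KO arrays, against 5216 and 5315 on the wild-type arrays. The Ezh2 KO values thus lay below both wild-type values, but close to them. The difference in log2(intensity + 16) was -0.08 (SE 0.06, limma adjusted p = 0.555), with a 95% interval of -0.22 to 0.06. Whether this probe set lies inside the deleted part of the gene was not analysed here, so its level checks neither the deletion nor the labels. An intensity from bulk RNA also cannot tell fewer cells with a transcript from less of it per cell, and this holds for every value below.

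Ezh1, the relative that can methylate the same lysine, was read by 4 probe sets. The brightest, 1449023_a_at, had 655 and 661 on the Ezh2 KO arrays, against 596 and 640.0 on the wild-type arrays. Both Ezh2 KO values were the higher ones, by less than the difference between the wild-type arrays. The log2 difference was 0.09 (SE 0.10, limma adjusted p = 0.697), and its interval ran from -0.14 to 0.32. That interval holds for this probe set alone and rests on the spread between 2 arrays a group. The probe set 1418290_a_at averaged 117 ± 15.3 in Ezh2 KO cells and 115 ± 18.7 in wild-type cells (SD, n = 2 arrays each). Its log2 difference of 0.02 had a wider interval, from -0.50 to 0.54. The other Ezh1 probe sets were dim. The first, 1429629_at, averaged 28.0 ± 12.3 in Ezh2 KO cells and 26.2 ± 5.29 in wild-type cells, and 1429630_at averaged 18.8 ± 1.09 in Ezh2 KO cells and 22.7 ± 5.98 in wild-type cells, so the second was below the filter and was not tested. Taking the brightest probe sets, the log2 ratio of Ezh1 to Ezh2 was higher on both Ezh2 KO arrays than on either wild-type array, by 0.17 on average, and the exact two-sided permutation test gave p = 0.333, the smallest value that 2 arrays against 2 allow.

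**Figure D2:**
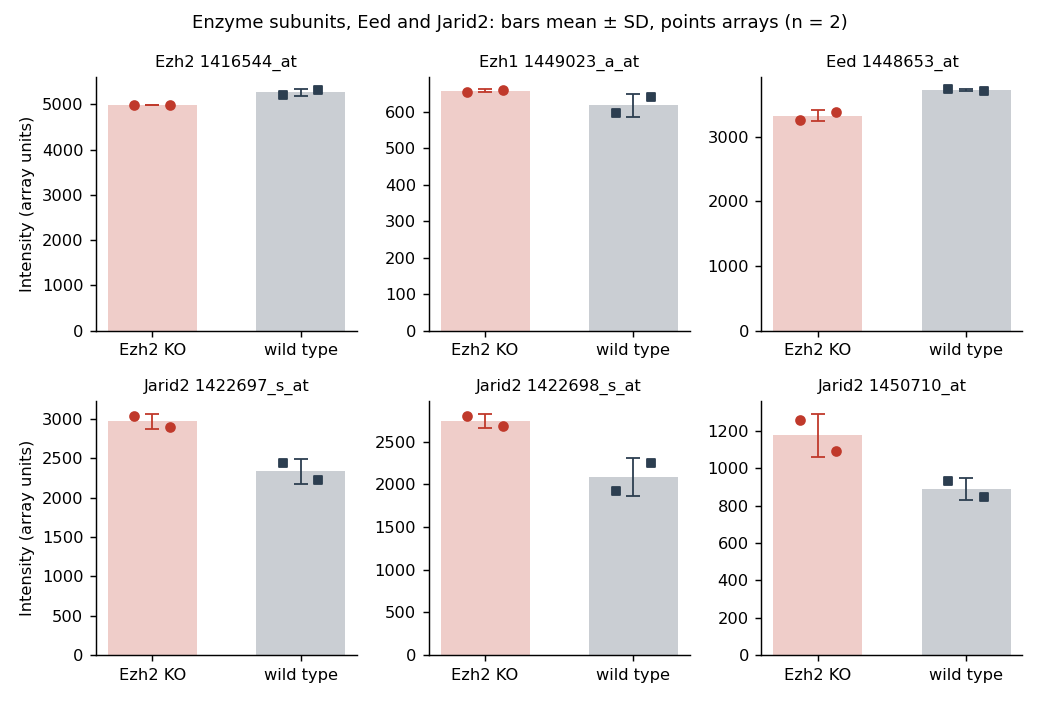
Intensity (linear axis from 0) of the brightest probe sets of Ezh2, Ezh1 and Eed and of all 3 Jarid2 probe sets, with Ezh2 KO cells left of wild-type cells. Bars are means, error bars SD and points the arrays (n = 2). The Ezh2 bars differ little, and in each Jarid2 panel both Ezh2 KO points lie above both wild-type points.

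Eed and Suz12 are the core partners without which the enzyme is inactive, Eed being the subunit that reads the methyl mark. The main Eed probe set, 1448653_at, had 3265 and 3382 on the Ezh2 KO arrays, against 3730 and 3708 on the wild-type arrays. The Ezh2 KO arrays were lower and the groups did not overlap. The log2 difference was -0.16 (SE 0.07), with an unadjusted p of 0.037 and a limma adjusted p of 0.201, so it did not pass. A dim second probe set, 1453830_at, ran the other way, with 46.1 and 31.4 in Ezh2 KO cells and 23.8 and 22.7 in wild-type cells. Its log2 difference of 0.47 had an interval of -0.48 to 1.41.

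Suz12 had 6 probe sets, and 0 of them passed. The brightest, 1420021_s_at, had 7197 and 7288 on the Ezh2 KO arrays, against 6896 and 7234 on the wild-type arrays, and the groups overlapped. Its log2 difference was 0.04 (SE 0.06, limma adjusted p = 0.812). The next brightest, 1427253_s_at, had 5438 and 5311 in Ezh2 KO cells and 4958 and 5469 in wild-type cells, and 1452364_at had 3501 and 2907 in Ezh2 KO cells and 3252 and 3352 in wild-type cells. The groups overlapped in both, and the log2 differences were 0.05 and -0.05. Of the dimmer ones, 1449661_at had 516 and 564 in Ezh2 KO cells and 483 and 466 in wild-type cells, and 1420022_s_at had 241 and 230 in Ezh2 KO cells and 173 and 193 in wild-type cells. In both of these the groups did not overlap, yet their adjusted p-values were 0.416 and 0.280. The remaining one, 1420020_at, averaged 258 ± 28.3 in Ezh2 KO cells and 270 ± 39.7 in wild-type cells (SD, n = 2 arrays each), a log2 difference of -0.06 with overlapping groups.

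Rbbp4 and Rbbp7 bind histones in PRC2 and also serve other chromatin complexes. The 4 probe sets of Rbbp4 had log2 differences between 0.01 and 0.16, of which 3 were negative with median centring (-0.06, -0.08 and -0.06). The 2 probe sets of Rbbp7 had log2 differences of 0.04 and -0.00071. The limma adjusted p-values of these 6 were 0.507 and above. The brightest Rbbp4 probe set, 1434892_x_at, averaged 17545 ± 187 in Ezh2 KO cells and 17123 ± 298 in wild-type cells, and its groups did not overlap. Of the other Rbbp4 probe sets, 1454791_a_at averaged 8010 ± 379 in Ezh2 KO cells and 7934 ± 252 in wild-type cells, 1454875_a_at averaged 4511 ± 21.4 in Ezh2 KO cells and 4396 ± 255 in wild-type cells, and 1456260_at averaged 790 ± 120 in Ezh2 KO cells and 702 ± 13.2 in wild-type cells. In these 3 the groups overlapped. For Rbbp7, 1456227_x_at averaged 13889 ± 904 in Ezh2 KO cells and 13540 ± 816 in wild-type cells, and 1415775_at averaged 10539 ± 21.9 in Ezh2 KO cells and 10547 ± 344 in wild-type cells (SD, n = 2 arrays each). The interval of 1415775_at, from -0.14 to 0.14 on the log2 scale, was among the narrowest of the members. In this array's naming, an x in the suffix marks probes that can also match other transcripts, as for 1434892_x_at and 1456227_x_at. The called probe sets of Kdm6b and Rrm2, given further on, carry the same x, so the same caution applies to their calls.

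Jarid2 helps bring PRC2 to its targets and modulates the enzyme's activity. Its probe set 1422697_s_at had 3041 and 2901 on the Ezh2 KO arrays, against 2442 and 2224 on the wild-type arrays. The probe set 1422698_s_at had 2803 and 2686 in Ezh2 KO cells and 1925 and 2244 in wild-type cells. The third, 1450710_at, had 1259 and 1094 in Ezh2 KO cells and 932 and 848 in wild-type cells. In all 3, both Ezh2 KO arrays lay above both wild-type arrays. The log2 differences were 0.35 (SE 0.08), 0.40 (SE 0.09) and 0.39 (SE 0.10), with limma adjusted p-values of 0.0266, 0.0262 and 0.0486. These are modest changes: 24.8% of all tested probe sets had a larger absolute log2 difference than 1422698_s_at. Among 2954 genes with 3 or more tested probe sets, 22 (0.745%) had every one of them higher and 0.406% had every one lower, a count made after the Jarid2 values were seen. The calls sit near the threshold. Centring each array on its median gave log2 differences of 0.25 to 0.30 with adjusted p-values of 0.190 to 0.207 and 0 calls. Testing without a filter gave adjusted p-values of 0.0575 to 0.0916, and a single prior variance gave 0.299 to 0.307. With a pseudocount of 1, 1450710_at alone lost its call (adjusted p = 0.0542). Without Ezh2 KO replicate 1, 0 of the 3 passed, and without wild-type replicate 1 or wild-type replicate 2, 1 of the 3 passed each time. Between the same groups 5 of 9 myeloid markers and 4 of 15 proliferation genes changed, with the values given further on. Over the brightest probe sets of all genes, 9.18% passed. The part of these markers and proliferation genes in the Jarid2 result was not tested. Whether the probes of 1422697_s_at, 1422698_s_at and 1450710_at also match other transcripts was not tested either. The Jarid2 sign was positive under every alternative tried, with log2 differences from 0.25 to 0.51 and adjusted p-values from 0.0038 to 0.307. Because the groups did not overlap, only quantile normalization and median centring could have turned that sign.

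**Figure D3:**
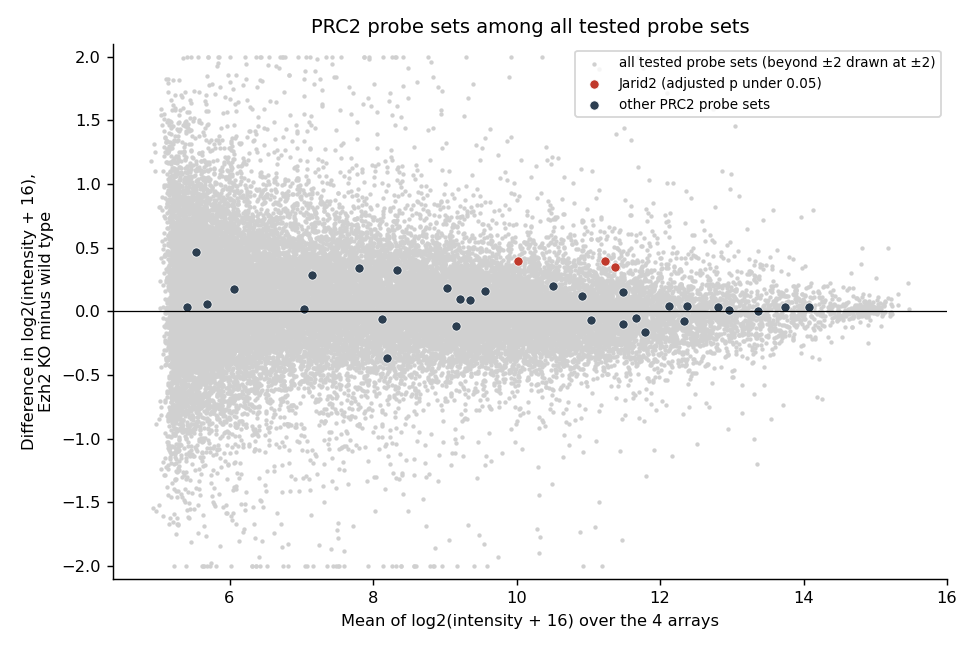
Difference in log2(intensity + 16) between Ezh2 KO and wild-type cells (y axis) against mean log2 level over the 4 arrays (x axis) for the 31526 tested probe sets in grey, with the 33 PRC2 probe sets marked. The Jarid2 points lie between 0.35 and 0.40, and the spread of the grey points narrows with level.

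Aebp2, a zinc finger protein found with Jarid2 in the same form of PRC2, had 5 probe sets and 0 past the threshold. The brightest, 1434080_at, had 1990 and 2102 on the Ezh2 KO arrays, against 2155 and 2134 on the wild-type arrays, a log2 difference of -0.07 (limma adjusted p = 0.681). The probe set 1455616_at had 239 and 245 in Ezh2 KO cells and 327 and 307 in wild-type cells. The groups were well apart in this one, and its log2 difference of -0.37 (SE 0.14) was the most negative among the members, but its adjusted p was 0.171. Of the other 3, 1437743_at averaged 594 ± 16.7 in Ezh2 KO cells and 564 ± 147 in wild-type cells, 1435070_at averaged 535 ± 33.6 in Ezh2 KO cells and 580 ± 6.32 in wild-type cells, and 1421021_at averaged 55.2 ± 2.61 in Ezh2 KO cells and 47.1 ± 5.04 in wild-type cells (SD, n = 2 arrays each). Their log2 differences were 0.10, -0.11 and 0.18, so the Aebp2 probe sets had no common sign.

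Mtf2 and Phf19 carry domains that bind methylated histones and define the other form of the complex. Of 6 Mtf2 probe sets, 5 had a positive log2 difference (4 with quantile normalization or median centring, where 1459811_at turned negative) and 0 passed. For 1449115_at the values were 1553 and 1532 on the Ezh2 KO arrays, against 1331 and 1348 on the wild-type arrays, with a log2 difference of 0.20 (SE 0.08, limma adjusted p = 0.172). For 1418514_at they were 3177 and 2843 in Ezh2 KO cells and 2769 and 2650.0 in wild-type cells, with a log2 difference of 0.15 (adjusted p = 0.327). In these 2 probe sets the groups did not overlap. In the other 4 they did. Of these, 1418516_at averaged 2760.4 ± 433 in Ezh2 KO cells and 2947 ± 168 in wild-type cells, 1418515_at averaged 1995 ± 272 in Ezh2 KO cells and 1827 ± 150 in wild-type cells, and 1445151_at averaged 146 ± 57.9 in Ezh2 KO cells and 113 ± 5.05 in wild-type cells (SD, n = 2 arrays each). Their log2 differences were -0.10, 0.12 and 0.28. The sixth probe set, 1459811_at, with a log2 difference of 0.06, read 15.9 and 69.9 on the Ezh2 KO arrays and 19.6 and 55.0 on the wild-type arrays, so its arrays differed more within a group than between groups.

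Phf19 was read by 1427920_at at 331 and 359 on the Ezh2 KO arrays, against 303 and 244 on the wild-type arrays. Both Ezh2 KO values were higher, with a log2 difference of 0.33 (SE 0.15) and a limma adjusted p of 0.260, so it did not pass. Its second probe set, 1431857_at, lay below the filter, at 30.3 and 29.8 in Ezh2 KO cells and 7.10 and 13.1 in wild-type cells. Fitted without the filter, that probe set had a log2 difference of 0.83 (SE 0.35, adjusted p = 0.308), and that of Ezh1 below the filter, 1429630_at, had -0.15 (SE 0.36, adjusted p = 0.905). At these intensities signal cannot be told from background, since detection calls were not used here.

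**Figure D4:**
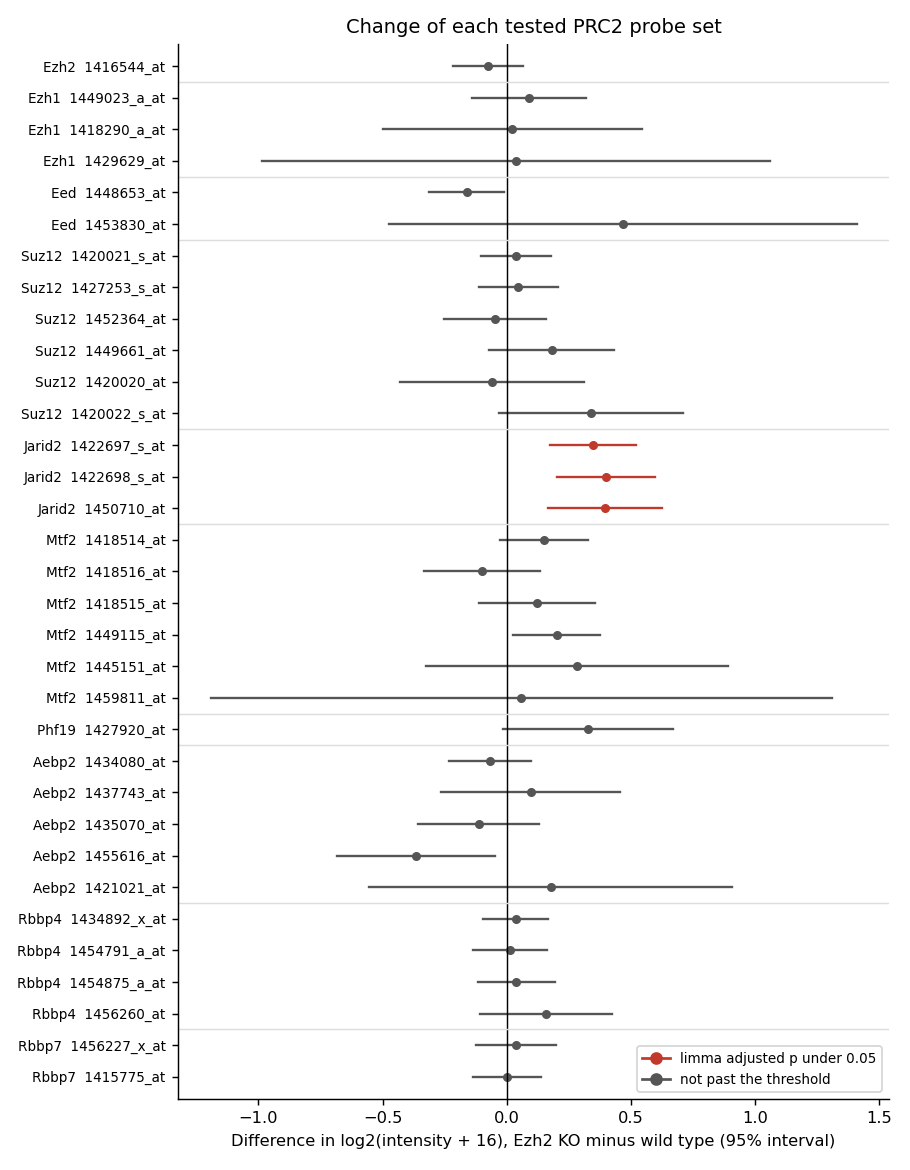
Difference in log2(intensity + 16), Ezh2 KO minus wild type, for the 33 tested PRC2 probe sets, with 95% intervals from limma. The 3 Jarid2 intervals lie above 0, and dim probe sets such as Mtf2 1459811_at have the widest intervals.

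Whether probe sets of one gene report different changes was tested on their log ratio within each array, each further probe set being set against the brightest of its gene. Among 23 such differences for the members, 0 passed a limma adjusted p of 0.05, and 1 had an unadjusted p under 0.05. Over all genes, 1 of 11652 differences passed (0.00858%), so this test made few calls anywhere. The lowest adjusted p of the members was that of Eed, 0.570, where the dim 1453830_at differed from 1448653_at by 0.63 (SE 0.24). For Suz12, 1420022_s_at differed from 1420021_s_at by 0.30 (SE 0.14), and for Mtf2, 1418516_at differed from 1418514_at by -0.25 (SE 0.11), both with an adjusted p of 0.614. The further probe sets of Jarid2 differed from its brightest by 0.05 each (SE 0.13 and 0.14, adjusted p = 0.959 and 0.962). Members that did not pass are not thereby shown to agree.

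The probe sets whose 4 values ran most like Jarid2 1422698_s_at, by Euclidean distance of log2 values centred on their mean, were Nup205 1430343_at at 0.025, Klhl15 1435818_at at 0.027 and Bcl6 1421818_at at 0.031, among 25579 candidates. Their log2 differences were 0.40, 0.37 and 0.40, and 0 of the 3 passed the threshold. The other Jarid2 probe sets ranked 2177th and 2489th by the same measure, so over 4 arrays it places many unrelated probe sets closer than those of the same gene.

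Genes that act with or against PRC2 were compared through the brightest probe set of each gene. Over all 13928 genes tested in this way, 9.18% passed, 4.52% as higher and 4.66% as lower, and the median log2 difference was 0.0057. Of 4 other PRC2-associated proteins, 2 were tested and 0 passed, with 0 at an unadjusted p under 0.05. Phf1, a relative of Mtf2, had a log2 difference of 0.04, which was -0.04 with quantile normalization and -0.06 with median centring. Lcor, whose locus also encodes a PRC2 partner, had 0.07, which was -0.02 with median centring. Ezhip, an inhibitor of the enzyme, read 5.73 and 15.4 in Ezh2 KO cells and 28.8 and 3.07 in wild-type cells, below the filter like Epop.

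Of 3 genes of the H3K27 demethylase family, named for removing the mark PRC2 makes, 0 passed and 2 had an unadjusted p under 0.05. Kdm6b 1456610_at had 579 and 616 on the Ezh2 KO arrays, against 452 and 433 on the wild-type arrays, a log2 difference of 0.42 (SE 0.11) whose limma adjusted p of 0.0513 lay at the threshold. It ran from 0.0275 to 0.237 over the alternatives. Kdm6b 1442643_at, named after its value was seen, had 260 and 223 in Ezh2 KO cells and 160 and 116 in wild-type cells. Its log2 difference of 0.75 (SE 0.20, limma adjusted p = 0.0557) did not pass. Another Kdm6b probe set, 1447612_x_at, also named after its value was seen, passed with 485 and 505 in Ezh2 KO cells and 323 and 287 in wild-type cells (1.59-fold, adjusted p = 0.0129). That call held in 12 of 14 alternatives and was lost without wild-type replicate 2 (adjusted p = 0.0516) and with a single prior variance. The Y-linked relative Uty had a log2 difference of -0.36 (adjusted p = 0.190), which ran from -0.55 to -0.17 over the alternatives and passed in 2 of 15, with the replicate block (adjusted p = 0.0446) and without Ezh2 KO replicate 2 (adjusted p = 0.0283). Of 15 tested subunits of NuRD, SIN3 and CAF-1, complexes that share Rbbp4 or Rbbp7, 1 was lower and 0 were higher, with a median log2 difference of 0.02. The one that fell was Sap30, a SIN3 subunit, with 1125 and 849 in Ezh2 KO cells and 1411 and 1351 in wild-type cells (log2 difference -0.49, limma adjusted p = 0.0455). That call held in 8 of 15 alternatives and was lost with quantile normalization (adjusted p = 0.0534), with a pseudocount of 1, without a filter and with a single prior variance, and without wild-type replicate 1 (-0.46), wild-type replicate 2 (-0.52) or Ezh2 KO replicate 2 (-0.29).

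**Figure D5:**
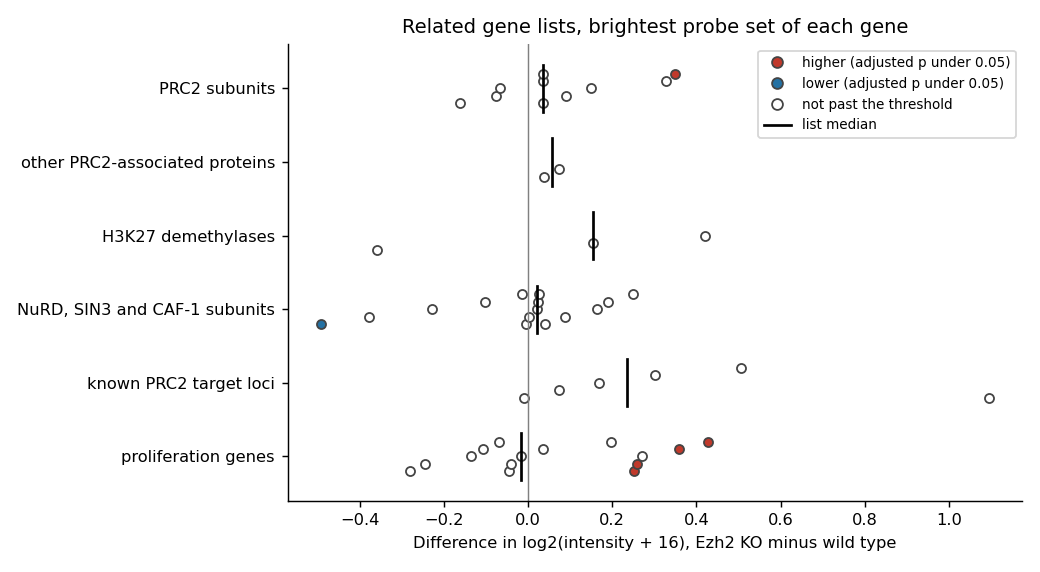
Difference in log2(intensity + 16), Ezh2 KO minus wild type, for the brightest probe set of each tested gene in 6 lists, with the list median as a bar. Filled points passed a limma adjusted p of 0.05: Jarid2 among the PRC2 subunits, Sap30 as lower, and 4 proliferation genes as higher.

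Of 7 loci known as PRC2 targets, 6 were tested and 0 passed, while 2 had an unadjusted p under 0.05. These were Hoxa9 and Cdkn2b. Hoxa9, a homeobox gene that MLL fusions activate, had 15793 and 16200.4 on the Ezh2 KO arrays, against 13666 and 14818 on the wild-type arrays, a log2 difference of 0.17 (SE 0.06, limma adjusted p = 0.166). Another Hoxa9 probe set, 1421579_at, had 2751 and 2826 in Ezh2 KO cells and 2916 and 2649 in wild-type cells. Its groups overlapped, with a log2 difference of 0.0047 (limma adjusted p = 0.983). Cdkn2b, a cell cycle inhibitor, had 36.6 and 54.6 in Ezh2 KO cells and 15.2 and 10.1 in wild-type cells. Both wild-type values lie below the filter intensity, so Cdkn2b was tested only through its Ezh2 KO arrays, and its fitted log2 difference (adjusted p = 0.201) ran from 0.51 to 1.77 as the pseudocount was changed. Pax5, a B cell factor, was dim with overlapping groups, and its log2 difference of 0.51 (adjusted p = 0.641) ran from 0.031 to 0.98 over the alternatives. A second probe set of Meis1, 1443260_at, named after its value was seen, passed with 1688 and 1643 in Ezh2 KO cells and 1349 and 1334 in wild-type cells (1.24-fold, limma adjusted p = 0.0443), while the brightest probe set of Meis1, another gene activated by MLL fusions, had a log2 difference of -0.01. The Meis1 call held in 7 of 14 alternatives and was lost without any 1 of the 4 arrays (adjusted p of 0.0899 to 0.163). Cdkn2a, the gene that encodes Ink4a and Arf, had 41.2 and 22.0 in Ezh2 KO cells and 21.6 and 22.0 in wild-type cells. Apart from the 41.2 of Ezh2 KO replicate 1, these values lay near the filter intensity, and the wild-type mean of 21.8 lay below it. The level of Cdkn2a thus does not settle the conflict between the label entries. Among 15 tested proliferation genes, which often vary together with Ezh2, 4 were higher, 0 were lower and the median log2 difference was -0.02. Of all genes, by brightest probe set, 4.52% were higher and 4.66% lower. Mki67 rose 1.35-fold, Ccna2 1.28-fold, Top2a 1.20-fold and Rrm2 1.19-fold (limma adjusted p of 0.00329, 0.0161, 0.0447 and 0.0427). With median centring 0 of these 4 passed, and the calls of Ccna2, Top2a and Rrm2 were lost without wild-type replicate 1 (0.37, 0.25 and 0.21), wild-type replicate 2 (0.34, 0.27 and 0.29) or Ezh2 KO replicate 1 (0.29, 0.20 and 0.23).

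As a check of the label, the myeloid genes were present in both groups, with Mpo at 36399 and 32237 in Ezh2 KO cells and 32252 and 32222 in wild-type cells. Of 9 myeloid markers, 2 were higher and 3 lower, against 4.52% higher and 4.66% lower over all genes. Among them were Itgam at 1.67-fold and Cd68 at a log2 difference of -0.89, Fcgr3 at -0.72 and Cebpa at -0.63. The last was -0.49 and lost its call without wild-type replicate 2. The myeloid markers summed to 74778 and 68267 in Ezh2 KO cells and 72013 and 72338 in wild-type cells. Markers of other cells of the marrow were much lower in sum than the myeloid ones, the brightest being Pecam1, of endothelium, at 240 and 317 in Ezh2 KO cells and 390 and 381 in wild-type cells, and Itga2b, of megakaryocytes, at 258 and 180 in Ezh2 KO cells and 143 and 193 in wild-type cells. Summed over a list, erythroid markers (3 genes) read 120 and 73.3 on the Ezh2 KO arrays, B cell markers (3) 58.2 and 110, T cell markers (4) 240 and 93.2, those of stroma and endothelium (4) 315 and 421, those of megakaryocytes (2) 295 and 192 and that of NK cells (1) 34.8 and 22.2. On the wild-type arrays the same lists read 131 and 102 for erythroid markers, 61.5 and 66.7 for B cells, 165 and 90.1 for T cells, 468 and 432 for stroma and endothelium, 165 and 227 for megakaryocytes and 6.84 and 8.92 for NK cells. Of these 17 genes, 10 were tested, 0 passed the limma test and 1 had an unadjusted p under 0.05. Across the tested probe sets log2 values correlated at 0.981 within each group and at 0.972 to 0.975 between groups, which describes the arrays only, since probe sets are not independent replicates.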

How the data were processed

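RNA was measured on 4 one-colour arrays with 45101 probe sets. The submitters' processing notes name Affymetrix Expression Console, with no version or summary algorithm. The deposited intensity values are linear, and the 2% trimmed mean of each array is 500.003, so the authors had scaled each array to one level, which removes differences in total RNA per cell. After 64 control probe sets were left out, 45037 remained, of which 34945 had 1 gene symbol, 932 had several and 9160 had none here. Groups were taken from the sample titles.

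The tests used log2(intensity + 16) with no other normalization, for the 31526 probe sets whose mean exceeded the 30th percentile, with limma 3.58.1 in R 4.3.3 (lmFit and eBayes with a prior variance that follows mean level). Each probe set had 2 residual degrees of freedom, 9.30 with the prior. The Benjamini-Hochberg correction was used. The pseudocount of 16 understates changes of dim probe sets. In lists, the probe set with the highest mean stood for its gene. Every member probe set is named, and of each list up to 4 changed genes of largest change, or 2 where 0 had changed. The members and lists were chosen with earlier results of these data known. Alternatives were quantile normalization, median centring, pseudocounts of 1 and 64, no filter or the 50th percentile, only probe sets with 1 symbol, 1 probe set per gene, a single or a robust prior variance, the replicate number as a block, and leaving out each array in turn. The fit was run on data simulated from its own fitted variances, which does not check whether its assumptions hold for these arrays. Promoter windows are from RefSeq (GRCm38.p6). Figures were drawn with matplotlib 3.10.9 (Python 3.11.15).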

Additional observations from a re-analysis of the deposited data

How the results depend on the processing

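With 2 arrays a group, precision is limited by the number of arrays, and with an array left out the lone array of its group is assumed to vary like the others. In the 3 Jarid2 probe sets both Ezh2 KO arrays lay above both wild-type arrays. Leaving out 1 array or changing the pseudocount therefore could not turn their sign. The settings for the filter, the probe sets kept, the prior variance and the block left their log2 differences unchanged. Only quantile normalization and median centring could have turned the sign. The 3 Jarid2 probe sets kept their sign in 43 of 43 values over 15 alternatives and passed in 26. The other members passed in 0 of 425, with a lowest adjusted p of 0.114, and turned sign in 36. The count of members past the threshold was 3 of 33 as reported, 0 with median centring, without a filter and with a single prior variance, 2 with a pseudocount of 1, 1 of 10 with 1 probe set per gene, and 0 to 3 without 1 array. Over all probe sets the count was 2303 as reported, 1392 without a filter, 3715 with the replicate block, 1175 to 2161 without 1 array (1175 without wild-type replicate 1), and 0 with a single prior variance, where 4978 had an unadjusted p under 0.05 (6637 as reported) and 5 of these were members. Median centring moved the median log2 difference of all probe sets from 0.036 to -0.061 and the calls to 600 higher and 1130 lower, against 1234 higher and 1069 lower. Deviations of same-numbered arrays correlated at 0.036 over probe sets, which does not settle whether the replicate numbers pair the arrays. The replicate block left the members' count at 3, but it lowered the Jarid2 limma adjusted p-values. They were 0.0041 for 1422697_s_at, 0.0038 for 1422698_s_at and 0.0087 for 1450710_at.

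Sign changes among uncalled log2 differences were as follows. With quantile normalization they were 0.012 for Rbbp7 1415775_at, -0.050 for Ezh1 1418290_a_at, -0.066 for Ezh1 1429629_at, -0.046 for Mtf2 1459811_at and -0.043 for Phf1. With median centring they were -0.076 for Ezh1 1418290_a_at, -0.061 for Ezh1 1429629_at, -0.0080 for Ezh1 1449023_a_at, -0.061 for Suz12 1420021_s_at, -0.052 for Suz12 1427253_s_at, -0.062 for Rbbp4 1434892_x_at, -0.084 for Rbbp4 1454791_a_at, -0.059 for Rbbp4 1454875_a_at, -0.0010 for Aebp2 1437743_at, -0.061 for Rbbp7 1456227_x_at, -0.039 for Mtf2 1459811_at, -0.058 for Phf1 and -0.023 for Lcor. Without 1 array the range was -0.034 to 0.032 for Rbbp7 1415775_at, -0.030 to 0.10 for Rbbp7 1456227_x_at, -0.13 to 0.17 for Ezh1 1418290_a_at, -0.25 to 0.32 for Ezh1 1429629_at, -0.017 to 0.26 for Mtf2 1418515_at, -0.26 to 0.058 for Mtf2 1418516_at, -0.091 to 0.66 for Mtf2 1445151_at, -0.66 to 0.77 for Mtf2 1459811_at, -0.20 to 0.082 for Suz12 1420020_at, -0.025 to 0.12 for Suz12 1427253_s_at, -0.18 to 0.084 for Suz12 1452364_at, -0.17 to 0.36 for Aebp2 1437743_at, -0.035 to 0.062 for Rbbp4 1454791_a_at, -0.021 to 0.097 for Rbbp4 1454875_a_at and -0.039 to 0.12 for Phf1. The cause of these moves was not tested.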
